A study of Drosophila melanogaster with 14 samples.

Results

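The peaks described here are the 214 of 627 peaks of the wild-type HA list that shared no base with any of the 2517 peaks of the wild-type CP190 list. They were chosen by these 2 lists alone, so the absence of a CP190 peak in wild type is a selection and not a result. HA is a short epitope tag, and the peaks are read here as places where chromatin was recovered through tagged dCTCF, as far as the labels name the tag. They are called CP190-free peaks, which says only that CP190 was not listed there. The other 413 wild-type HA peaks, which overlapped a CP190 peak, serve as the comparison.

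dCTCF is the fly homologue of the zinc finger protein CTCF, which binds DNA through its zinc fingers and is known for its role at insulators, elements that separate neighbouring regulatory domains. CP190 is a protein with a BTB domain and zinc fingers that many insulator proteins recruit to chromatin, and dCTCF is one of its known partners. In the bithorax complex, where the posterior Hox genes lie, dCTCF sites mark several of the boundaries between regulatory domains.

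The series measured chromatin binding by ChIP-seq, in which DNA recovered with an antibody is sequenced and enriched regions are listed as peaks. The flies were whole adults of the Oregon-R strain, 2 to 3 days old, so each value is a mixture of all adult tissues. Every antibody was used in a line labelled dCTCF wild type and in a line labelled dCTCFdelta705-733, which lacks these residues of dCTCF and is called the deletion line here. The antibodies were against HA, dCTCF or CP190, and each was used on 2 replicates per line, with 1 mouse and 1 rat preimmune library as controls, 14 libraries in all. The labels do not say how the tag or the deletion was introduced, and they name the same strain for both lines. The files give 1 list per antibody and line, so there is no spread between replicates, no test between lines and no known depth. The lists end at a global irreproducible discovery rate, a measure of agreement between 2 sets of peak calls, of 0.05 for wild-type HA and both dCTCF-antibody lists and of 0.01 for deletion HA and both CP190 lists. A weak site can therefore be missing from a list through its limit. The Wilson intervals given with the shares are 95% intervals that cover the counting of peaks only, and neighbouring peaks are not independent.

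Each list gives a fold enrichment per peak, which is the authors' ratio of ChIP over preimmune. The value of a peak is used here only to describe or order peaks within its own list. A place is the rank in that order, with 1 the strongest peak. The CP190-free peaks were mostly weak HA peaks: their HA fold enrichment ran from 2.02 to 56.7 with a median of 4.03. Peaks with CP190 ran from 2.02 to 85.6 with a median of 18.99. The median place of CP190-free peaks was 441.5 of 627, against 221 for peaks with CP190. Pooled over all strengths they were also narrower, with a median width of 636 bp against 854 bp, which did not hold in every strength class below. The ranges overlapped almost fully, and strong CP190-free peaks existed. These HA values come from the list that chose the peaks and are a description.

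The strength classes show the same shift in more detail. When the HA list was ordered by fold enrichment and divided into 4 classes of 156 or 157 peaks, 10 peaks of the strongest class (6.41%) were CP190-free. The second class held 25 (15.9%), the third class held 92 (58.6%) and the weakest class held 87 (55.4%). These classes covered fold enrichments of 28.7 to 85.6, 10.4 to 28.6, 3.36 to 10.3 and 2.02 to 3.35. Because strength and CP190 status moved together, many comparisons with the peaks that had CP190 are given within these classes as well. From the strongest to the weakest class, the median width of CP190-free peaks was 1143, 841, 635 and 496 bp. For peaks with CP190 it was 1123.5, 757, 672 and 538.5 bp. The CP190-free peaks were thus not narrower in the strongest and second classes.

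**Figure D1:**
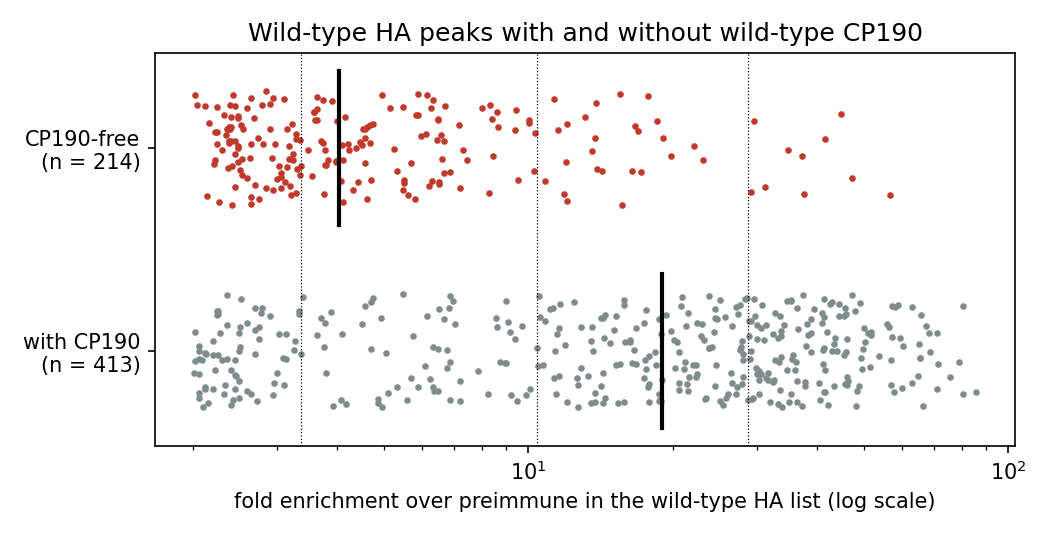
Fold enrichment over preimmune (horizontal, log scale) of the 214 CP190-free and the 413 other wild-type HA peaks, 1 point per peak with random vertical spread. Black bars are medians (4.03 and 18.99) and dotted lines separate the 4 strength classes; most CP190-free points lie in the 2 weaker classes.

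Support by the antibody against dCTCF itself was common. Of the 214 CP190-free peaks, 170 (79.4%, interval 73.5 to 84.3) overlapped a wild-type dCTCF-antibody peak by at least 1 bp, beside a background of 84.7% over all 627 wild-type HA peaks. Among peaks with CP190 the share was 361 of 413 (87.4%, interval 83.9 to 90.3). This antibody had its own rat preimmune control, whereas HA and CP190 shared the mouse one, so its list is the only other wild-type measurement with a separate control. Summits of the paired peaks lay close together, with a median distance of 14 bp and 145 of 170 pairs (85.3%) within 50 bp.

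The CP190-free peaks without antibody support were weak HA peaks. In the strongest and second classes every CP190-free peak, 10 of 10 and 25 of 25, had a wild-type dCTCF-antibody peak, as did all peaks with CP190. In the third class 90 of 92 (97.8%) had one, against 62 of 65 (95.4%) with CP190. In the weakest class 45 of 87 CP190-free peaks (51.7%, interval 41.4 to 61.9) had one, against 21 of 70 (30.0%, interval 20.5 to 41.5) with CP190. Within a class of HA strength, the share at CP190-free peaks was therefore no lower than at peaks with CP190. Strength was not fully matched within a class, as the median HA fold enrichment of the weakest class was 2.59 for CP190-free peaks and 2.44 for peaks with CP190, and that of the third class was 5.41 and 6.32. All 44 CP190-free peaks without antibody support had an HA fold enrichment of at most 4.31.

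In the deletion line most of the CP190-free peaks were listed again. A deletion HA peak lay at 176 (82.2%, interval 76.6 to 86.8), beside a background of 84.2% over all wild-type HA peaks and 352 of 413 (85.2%) at peaks with CP190. A deletion dCTCF-antibody peak lay at 159 (74.3%, interval 68.1 to 79.7), beside a background of 78.5% and 333 of 413 (80.6%) at peaks with CP190. Both lines share a control library for each antibody, which can raise this overlap, and its part in the result was not tested. Summits again sat close, with a median distance of 12 bp to the deletion HA peak and 12 bp to the deletion antibody peak.

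By class, the share at CP190-free peaks was equal to or higher than that at peaks with CP190 in both deletion dCTCF lists, although the pooled shares were lower. In the third class, 80 of 92 CP190-free peaks (87.0%, interval 78.6 to 92.4) had a deletion dCTCF-antibody peak, against 43 of 65 (66.2%, interval 54.0 to 76.5) with CP190. In the weakest class the counts were 44 of 87 (50.6%, interval 40.3 to 60.8) against 14 of 70 (20.0%, interval 12.3 to 30.8). For deletion HA the weakest class gave 50 of 87 (57.5%, interval 47.0 to 67.3) against 15 of 70 (21.4%, interval 13.4 to 32.4). For the deletion dCTCF antibody, the CP190-free peaks had the higher share in both weak classes, and the intervals did not overlap. These intervals cover the counting of peaks only and are no test between the groups, and HA strength was not fully matched within a class.

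**Figure D2:**
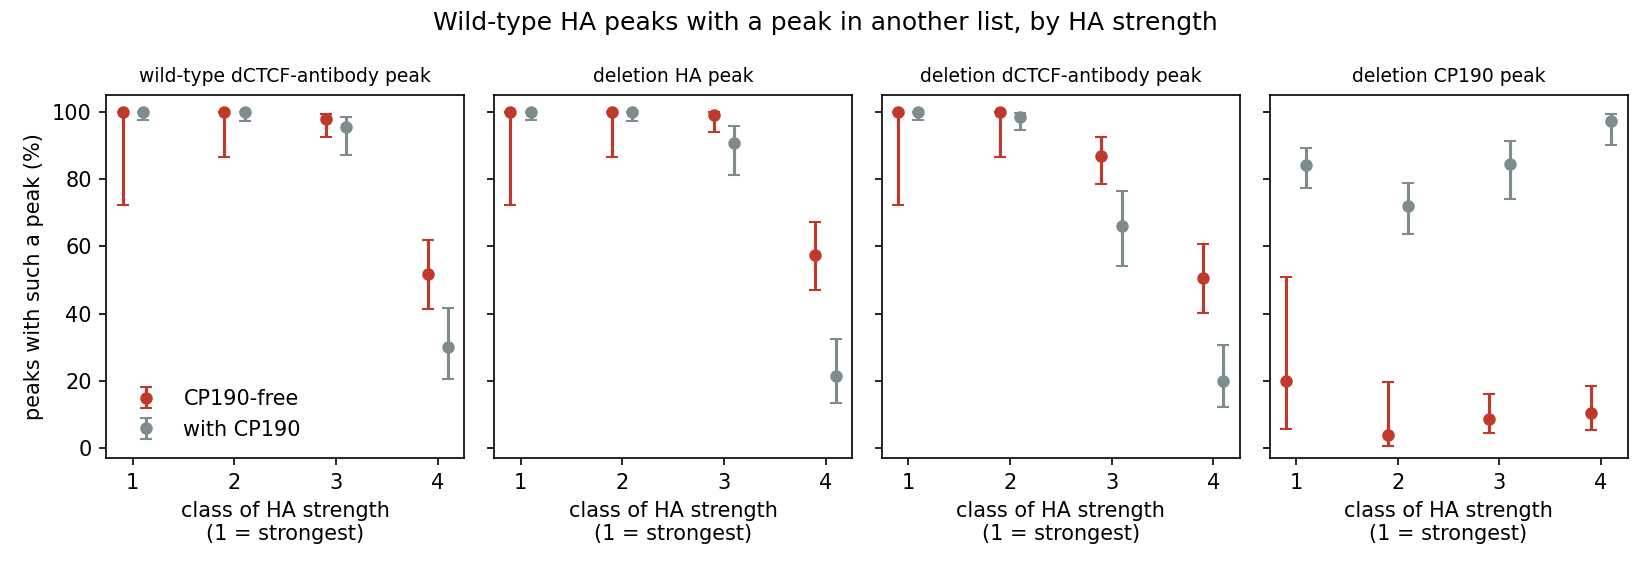
Percent of wild-type HA peaks with an overlapping peak in each of the other 4 lists (vertical, with 95% Wilson intervals) by class of HA strength (horizontal, class 1 the strongest), for CP190-free peaks and peaks with CP190. In class 4 the CP190-free peaks are at 51.7% for the wild-type dCTCF antibody and 10.3% for deletion CP190, against 30.0% and 97.1%.

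CP190 in the deletion line was the measurement that set the groups apart. A deletion CP190 peak overlapped 20 of 214 CP190-free peaks (9.35%, interval 6.13 to 14.0), against 341 of 413 peaks with CP190 (82.6%, interval 78.6 to 85.9) and a background of 57.6% over all wild-type HA peaks. The deletion CP190 list is longer than the wild-type one, with 3164 peaks, and the CP190-free peaks met 20 of these (0.632%, interval 0.410 to 0.974). The CP190-free state was thus mostly shared by both lines. By class the counts were 2 of 10, 1 of 25, 8 of 92 and 9 of 87, without an order from strong to weak. The groups were chosen by CP190 in wild type, so a gap between them in the same antibody was built into the comparison in part, and only the count in the deletion line is new.

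Counted over all lists, the largest set of CP190-free peaks was the 124 (57.9%) with a peak in all 3 other dCTCF lists and no deletion CP190 peak. Together with 13 that also had deletion CP190, 137 (64.0%, interval 57.4 to 70.1) had a peak in all 3 other HA and dCTCF-antibody lists, beside a background of 73.2% and 322 of 413 (78.0%) with CP190. At least 1 of these 3 lists held a peak at 198 (92.5%, interval 88.2 to 95.3), beside a background of 90.9% and 372 of 413 (90.1%) with CP190. In the weakest class, this was 71 of 87 (81.6%, interval 72.2 to 88.4) against 30 of 70 (42.9%, interval 31.9 to 54.5). A peak in none of the other 4 lists was found for 13 (6.07%, interval 3.58 to 10.1), beside a background of 2.23% and 1 of 413 with CP190. These 4 lists include deletion CP190, whose antibody chose the groups, so this contrast was built in in part. On the 3 dCTCF lists alone, the pooled shares with at least 1 peak were close, at 92.5% and 90.1%. Most CP190-free peaks thus have a second dCTCF measurement. The 13 in none of the other 4 lists are weak, with HA fold enrichments of 2.04 to 3.35 and a median of 2.39. Among peaks with CP190, 40 of 413 had deletion CP190 and no other dCTCF list, with a median HA fold enrichment of 2.27. That these peaks had deletion CP190 follows in part from the grouping by the same antibody and is not a separate result.

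**Figure D3:**
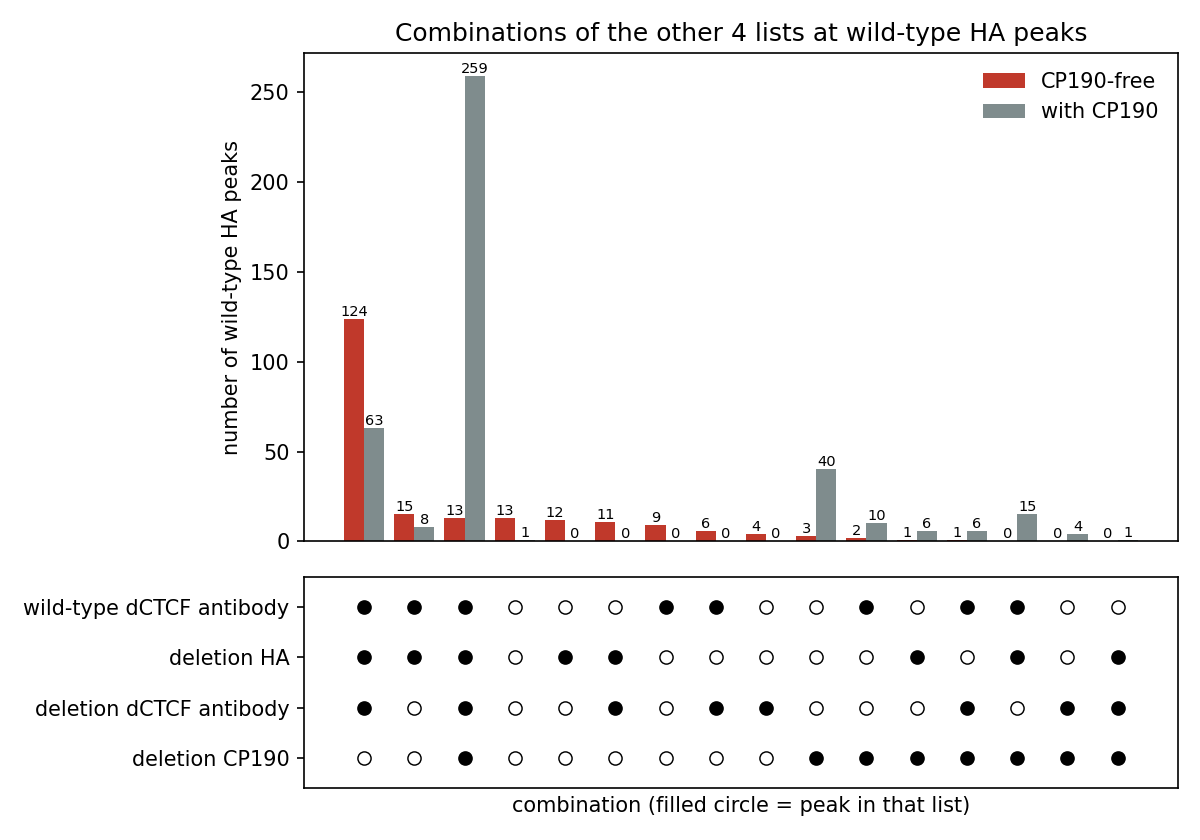
Number of CP190-free peaks and of peaks with CP190 for each combination of the other 4 lists. The combination of all 3 dCTCF lists without deletion CP190 holds 124 CP190-free peaks, and that of all 4 lists holds 259 peaks with CP190.

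In each of the lists given next, the median fold enrichment at CP190-free peaks was lower than at peaks with CP190. These medians are pooled over the strength classes, and the wild-type HA medians already differed (4.03 against 18.99). At the 170 CP190-free peaks with a wild-type dCTCF-antibody peak, that peak had a median fold enrichment of 5.24 (range 2.12 to 58.5), against 27.0 at peaks with CP190. At the 176 CP190-free peaks with a deletion HA peak, that peak had a median fold enrichment of 17.0 (range 3.66 to 399), against 101 at peaks with CP190, on the scale of their own list, whose median is 35.9. Values of the 2 HA lists cannot be compared in size, because the files do not give the depth. The 20 deletion CP190 peaks had a median fold enrichment of 3.45 (range 2.52 to 139), against 12.6 at peaks with CP190, and a median place of 2723.5 of 3164. Deletion CP190 peaks at CP190-free peaks were thus mostly near the end of that list. The gap to peaks with CP190 was built in in part here, because the same antibody chose the groups.

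**Figure D4:**
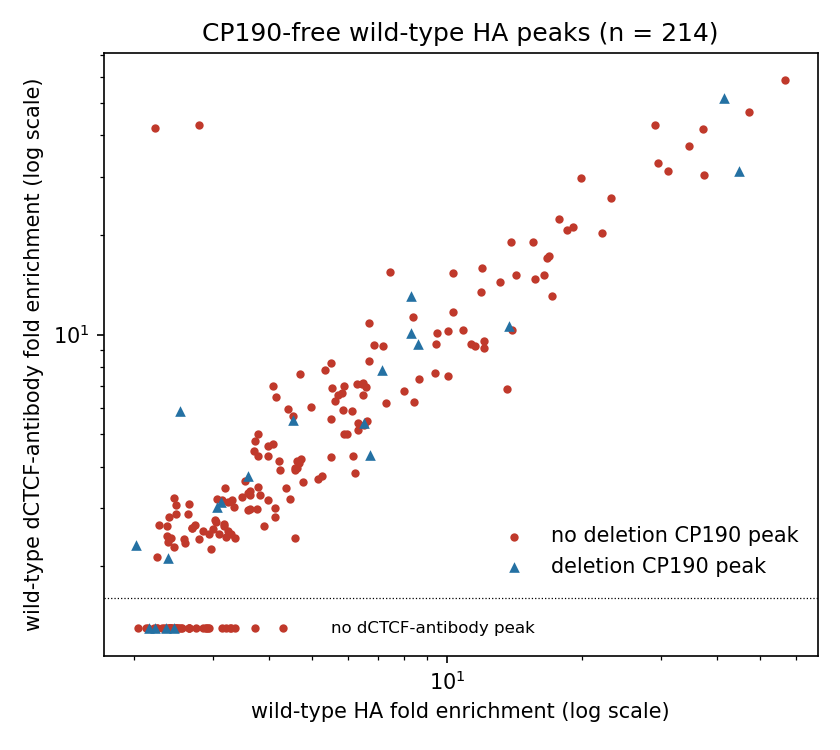
Wild-type dCTCF-antibody fold enrichment (vertical, log scale) against wild-type HA fold enrichment (horizontal, log scale) for the 214 CP190-free peaks; triangles mark the 20 with a deletion CP190 peak, and points under the dotted line have no antibody peak. Antibody values rise with HA values, apart from 2 weak HA peaks beside a stronger antibody summit (Obp99b and brwl).

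The strongest CP190-free peak lay in Eip74EF, an ETS transcription factor gene induced by the moulting hormone ecdysone, at 3L 17596769 to 17597648. Positions are those of Release 6 of the Drosophila melanogaster genome, counted from 1. Its fold enrichment was 56.7 for wild-type HA (place 30), 58.5 for the wild-type dCTCF antibody (place 65), 399 for deletion HA (place 10) and 57.0 for the deletion dCTCF antibody (place 45). It had no CP190 peak in either line, and the nearest wild-type CP190 peak began 5538 bp away. It is strong in 4 of 4 dCTCF lists.

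The second strongest lay between lncRNA:CR45416 and Prat2, a gene of purine synthesis, at 3L 6903666 to 6904582. Its fold enrichments were 47.2, 47.0, 180 and 49.3 in the same order of lists, and the nearest wild-type CP190 peak was 21232 bp away. The next 2 both had a weak deletion CP190 peak. The one at 2R 11451503 to 11453483 overlapped qvr, a regulator of potassium channels, and E(Pc), the Enhancer of Polycomb gene. Its fold enrichments were 44.8, 31.1, 235 and 33.4, and its deletion CP190 peak had a fold enrichment of 3.44 (place 2731) and a summit 548 bp away. The one at 3L 15161149 to 15162179 overlapped CG7011 and CG6878, with 41.5, 51.6, 229 and 45.6, and a deletion CP190 fold enrichment of 2.79 (place 3061). Its nearest wild-type CP190 peak was 1185 bp away. At both, deletion CP190 was near the end of its list. In the same order of dCTCF lists, the places of the peak at E(Pc) were 60 of 627, 173 of 700, 68 of 623 and 125 of 648. Those of the peak at CG7011 were 73, 85, 73 and 73.

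The fifth to seventh had no CP190 in either line. The peak that partly covered caps, which encodes a leucine-rich-repeat cell-surface protein, at 3L 13227242 to 13228980 had fold enrichments of 37.4, 30.3, 129 and 33.0. Its nearest wild-type CP190 peak was 72090 bp away. The peak inside velo, a SUMO protease gene, at 3L 6746891 to 6747685 had 37.3, 41.7, 220 and 42.8. The peak over ChLD3, LSm7 and BuGZ at 2L 16742556 to 16743810 had 34.7, 37.1, 220 and 40.4, with its summit 44 bp from an end of LSm7, an RNA-processing gene. These peaks lay 16040 bp and 21161 bp from the nearest wild-type CP190 peak. Strong and repeated dCTCF without CP190 was therefore listed at several separate places.

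Deletion CP190 peaks of high fold enrichment were rare. The highest lay across an end of Lk6, a kinase gene whose product phosphorylates the translation factor eIF4E, at 3R 11764374 to 11764719, with its summit 118 bp outside the gene. The HA fold enrichment there was 3.12 (place 493) and that of the wild-type antibody was 3.14, neither deletion dCTCF list had a peak, and deletion CP190 had a fold enrichment of 139 (place 2). The second overlapped no gene and lay between Glut3 and lncRNA:CR45750 at 3R 16798412 to 16799144, in the bithorax region. Its fold enrichments were 8.29 for wild-type HA, 13.1 for the wild-type antibody, 10.2 for deletion HA, 3.97 for the deletion antibody and 136 for deletion CP190 (place 3), with the CP190 summit 185 bp from the HA summit. Wild-type CP190 was listed no closer than 68968 bp and 69621 bp from these 2 peaks. Their global irreproducible discovery rates in the deletion CP190 list were 0.00845 and 0.00689, close to its limit of 0.01.

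The other 18 deletion CP190 peaks had fold enrichments of 2.52 to 6.52. The highest of them lay over Faa, a gene of tyrosine breakdown, with 6.52 (place 1711). Next were the one over Pcf11, an mRNA 3′-end processing gene, and Cyp6a22 with 4.18, the one over Usp10, a deubiquitinase gene, with 4.10, and the one over CG4041 and Hgsnat with 3.95. At Usp10 the CP190 summit was 1089 bp from the HA summit. Over all 20, the median distance between the summits was 83 bp, and 9 of 20 (45%, interval 25.8 to 65.8) lay within 50 bp. At peaks with CP190 the median distance was 35 bp, and 218 of 341 (63.9%) lay within 50 bp.

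Peaks without a wild-type dCTCF-antibody peak were led by 5 of HA fold enrichment 3.28 to 4.31. The strongest was on mitochondrial DNA (M 3 to 756, over trnI, trnQ, trnM and ND2), with 4.31 for wild-type HA and 4.50 for deletion HA. The next lay in Eip75B, an ecdysone-induced nuclear receptor gene, at 3L 18020887 to 18021295, with 3.73 for wild-type HA and 3.11 for the deletion antibody. It overlapped a deletion HA peak with a fold enrichment of 296, whose summit was 1219 bp away. The third, across an end of drl, a Wnt receptor gene of the Ryk family, at 2L 19190096 to 19190855 with 3.35, was listed in none of the other 4 lists. The others lay in pan, the TCF transcription factor gene, with a deletion HA peak of 6.62, and partly over chrb, an inhibitor of TOR signalling, with a deletion antibody peak of 3.01. At 4 of these 5 another dCTCF list therefore held a peak. For the mitochondrial peak and the one in pan this was deletion HA alone, with the same antibody and mouse control. Neither of them had a dCTCF-antibody peak in either line. Over all 44 CP190-free peaks without a wild-type antibody peak, 28 (63.6%, interval 48.9 to 76.2) had a peak in another dCTCF list. Another 13 (29.5%, interval 18.2 to 44.2) were in none of the other 4 lists.

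Neither deletion dCTCF list held a peak at 27 of the 214 CP190-free peaks. Of the 413 peaks with CP190, the same held for 40 with deletion CP190 alone. It also held for 10 with the wild-type antibody and deletion CP190, and for 1 in no other list. This state was therefore not particular to CP190-free peaks. The strongest of the 27 lay at 3R 25591239 to 25591966 over msi, the Musashi RNA-binding protein gene, and ymp. Its fold enrichments were 3.78 for wild-type HA and 3.47 for the wild-type antibody. It was followed by the peak at drl, by one at lncRNA:CR46006 (3.29 and 2.51) and by the one at Lk6. Next was one over Rbp6, an RNA-binding protein gene, and Afg3l2 (3.03 and 2.75). All 27 were weak in wild type, at an HA fold enrichment of at most 3.78. A weak peak missing from a list can lie just past the threshold of that list, and these cases cannot be told apart from loss of binding.

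At 2 weak HA peaks, chosen after their values were seen, the overlapping antibody peak was strong but its summit lay far away. The HA peak at 3R 29715994 to 29716275, across an end of Obp99b, an odorant-binding protein gene, with its summit 69 bp outside the gene, had a fold enrichment of 2.80 and overlapped an antibody peak of 42.8, whose summit was 956 bp away. The same antibody peak and the same deletion HA peak also covered the other CP190-free peak that overlaps this gene, at 3R 29716740 to 29717580 with 29.1. The HA peak at 2L 9568691 to 9569769 over lncRNA:CR44149 and brwl had 2.22 and met an antibody peak of 41.9 with a summit 1568 bp away. When summits had to lie within 200 bp in place of any overlap, the share of CP190-free peaks in none of the other 4 lists was 11.7%.

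Most CP190-free peaks lay several kilobases or more from the nearest CP190 peak. Of the 213 on chromosomes with a CP190 peak, the gap to the nearest wild-type CP190 peak ran from 121 to 241958 bp, with a median of 14825 bp. It was at most 500 bp for 5 and at most 1000 bp for 13 (6.07% of 214). The deletion CP190 list came closer, with a median gap of 10767 bp and 32 (15.0%) within 1000 bp. The rule allowed no overlap with wild-type CP190 but let 20 peaks overlap deletion CP190. The deletion CP190 list is also longer, with 3164 against 2517 peaks. A smaller gap to deletion CP190 was therefore built in in part. The nearest to wild-type CP190 lay at stumps, a gene of FGF receptor signalling, at 3R 14576864 to 14578506 with a gap of 121 bp. It was followed by Mp, a collagen gene, with 395 bp, CG9030 and the potassium channel gene eag with 413 bp, Usp10 with 461 bp and Faa with 482 bp. The 5 HA peaks with CP190 that shared the fewest bases with it shared 259 to 287 bp. Most of them were short HA peaks that lay wholly within a CP190 peak. This order by shared bases favours short peaks, so they are not borderline cases of the rule.

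**Figure D5:**
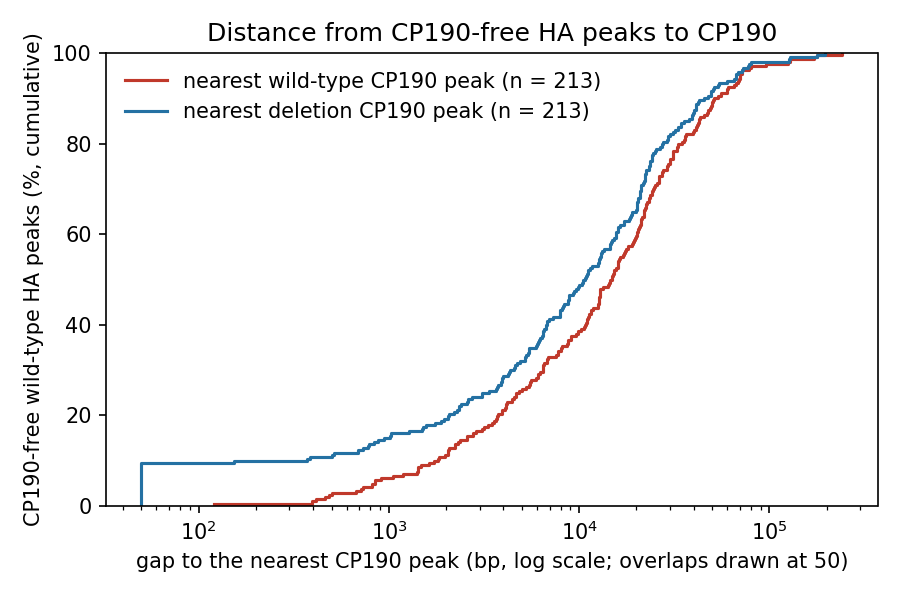
Cumulative percent of CP190-free peaks (vertical) by the gap to the nearest CP190 peak of each line (horizontal, bp, log scale). The median gap is 14825 bp to wild-type and 10767 bp to deletion CP190.

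Over all classes, CP190-free peaks lay inside genes more often than peaks with CP190. The summit of 112 of 213 on the chromosome arms (52.6%, interval 45.9 to 59.2) lay within a protein-coding gene, against 141 of 410 (34.4%, interval 30.0 to 39.1). The gene table gives no strand or exons, so introns, exons and UTRs were not distinguished, and a gene end is either end. The summit was within 200 bp of an end of a protein-coding gene for 70 (32.9%, interval 26.9 to 39.4), against 167 (40.7%, interval 36.1 to 45.6). The second class ran the other way, with 5 of 25 CP190-free peaks (20%) inside a gene against 36 of 131 (27.5%), and 14 of 25 (56%) near a gene end against 55 of 131 (42.0%). In the strongest class 5 of 10 were inside a gene against 44 of 146, and 3 of 10 near a gene end against 56 of 146. In the third class 50 of 91 CP190-free peaks (54.9%, interval 44.7 to 64.8) were inside a gene, against 21 of 63 (33.3%, interval 22.9 to 45.6). In the weakest class the shares were 59.8% and 57.1%, while 24 of 87 CP190-free peaks (27.6%, interval 19.3 to 37.8) and 38 of 70 peaks with CP190 (54.3%, interval 42.7 to 65.4) lay near a gene end. The intervals for lying inside a gene overlapped in every class, while those for a gene end were apart in the weakest class and overlapped in the other 3.

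The 20 CP190-free peaks with deletion CP190 lay nearer to genes' ends, with a median of 112 bp, than the 193 without, with a median of 993 bp. Within 200 bp of an end were 11 of 20 (55%, interval 34.2 to 74.2), against 59 of 193 (30.6%, interval 24.5 to 37.4), and these intervals overlap.

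Few of the peaks fell in the gene lists used. No peak of either group lay in any of 17 insulator-protein genes. Hox genes held 4 CP190-free peaks, 3 in Abd-B and 1 in Antp, and 3 peaks with CP190. The one in Antp at 3R 6970541 to 6970893 had an HA fold enrichment of 3.98, peaks in all 3 other dCTCF lists and a gap of 2224 bp to wild-type CP190. tRNA genes held 1 CP190-free peak and 8 with CP190. Between Ubx and Abd-B lay 5 CP190-free peaks, with HA fold enrichments of 8.29, 6.67, 5.89, 3.21 and 2.48. The peak of 3.21 had no wild-type antibody peak, and that of 2.48 had no peak in either deletion dCTCF list. The number of peaks with CP190 in this interval is not given here, so the 5 cannot be set against a share. Genes with more than 1 CP190-free peak were Abd-B with 3 of its 4 HA peaks and 9 others with 2 each, among them Obp99b, Fhos, Rbp6 and velo.

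A group of weak peaks lay around the chorion genes Cp18, Cp15, Cp19 and Cp16, which encode eggshell proteins and lie in a region known to be amplified in ovarian follicle cells. Within 100 kb of them, from 3L 8672731 to 8770881, lay 8 CP190-free peaks, all in the weakest class with HA fold enrichments of 2.22 to 3.06. This region was singled out after the positions of the peaks were seen. A wild-type antibody peak met 5 of the 8, a deletion antibody peak 6, deletion CP190 1 and deletion HA 0. In the weakest class as a whole, the shares of CP190-free peaks were 51.7%, 50.6%, 10.3% and 57.5% in the same order. Over all wild-type HA peaks of that class they were 42.0%, 36.9%, 49.0% and 41.4%. By contrast, the 3 HA peaks with CP190 there had fold enrichments of 30.2 to 41.2 and a median width of 14047 bp. All 3 had a peak in each of the other 4 lists. Without the 8, the share of CP190-free peaks with a deletion HA peak was 85.4% of 206 and that with a wild-type antibody peak was 80.1%, and the shares for the other lists stayed within their intervals too. The second chorion cluster, on X, had no wild-type HA peak within 100 kb.

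Over the chromosomes, the CP190-free peaks numbered 40 on 2L, 29 on 2R, 53 on 3L, 48 on 3R, 41 on X, 2 on chromosome 4 and 1 on mitochondrial DNA. Of the peaks on the arms, X held 41 of 213 CP190-free peaks (19.2%) and 78 of 410 peaks with CP190.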

How the data were processed

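Libraries came from whole flies (2 g, with 50 µg of chromatin DNA per precipitation), per the labels' protocols. Per the submitters' processing notes, cutadapt, Bowtie2, Picard and deepTools were used, and dm6 and dm3 are named, without roles. The peak caller is not given in the sources used here. Each list has the column layout of the irreproducible discovery rate (IDR) tool, and the lists end at a global IDR of 0.01 or 0.05. The authors' fold enrichment is a linear ratio. The deposited p-value of a peak is on a −log10 scale, and the IDR is deposited as a score, which is its −log10. Whether the 2 sets compared are the replicates is not stated. The 3R peaks reach 32068772, near the last gene end of Release 6 (32068441), and a RefSeq table of that release gave gene names.

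CP190-free peaks, shares at 1 bp overlap, Wilson intervals and distances were computed with Python 3.11.15, numpy 2.4.6 and pandas 2.3.3, and checked on simulated lists. The figures used matplotlib 3.10.9. Members and gene lists were chosen with earlier results of these data known. The peaks named are the 6 strongest by HA, the 6 with the highest deletion CP190, the 5 strongest without the wild-type antibody, the 5 strongest without both deletion dCTCF lists, the 5 nearest to CP190, and the 5 strongest in all 3 dCTCF lists without CP190, and those between Ubx and Abd-B. No test was run, since each group has 1 list. The planned motif search was not run, as no genome sequence was used here.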

Additional observations from a re-analysis of the deposited data

How the results depend on the processing

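Of 52 values under other settings, 36 stayed within the interval of the reported share or within 1.5 times of the reported count. Requiring summits within 200 bp gave 11.7% of CP190-free peaks in none of the other 4 lists. A limit of 0.01 on the global IDR gave 71.2% with a wild-type antibody peak. With only the stronger 50% of wild-type HA peaks there were 35 CP190-free peaks. Of these 100% had a wild-type antibody, deletion HA and deletion antibody peak, 100% were in all 3 and 0% were in none, with 48.6% near a gene end. Over all wild-type HA peaks, 100% of the strongest and second classes had a wild-type antibody and a deletion HA peak. In all 3 lists were 100% and 98.7%, so these shares were not particular to CP190-free peaks. Keeping the strongest 50% of every list gave 111 peaks, with 98.2% (wild-type antibody), 91.0% (deletion antibody), 4.50% (deletion CP190), 83.8% (all 3) and 0% (none). Shortening the CP190 list also redefines the group, as 76 of these 111 overlapped a wild-type CP190 peak of the full list. A gene-end distance of 1000 bp gave 53.1%. By construction, the shorter lists hold fewer weak peaks. Other causes of these changes were not tested. Leaving out the chorion region, chosen after seeing the data, moved no value beyond its limits. No paired analysis was possible because each group has 1 list and no per-replicate values. Depth is unknown, so a missing weak peak cannot be told from a threshold effect.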

Other observations

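The 13 CP190-free peaks in none of the other 4 lists lay apart from each other, with 5 on 3L, 4 on 2L, 2 on X and 1 each on 2R and 3R. The strongest was the one at drl (3.35). The others included peaks in Trim9 (2.54) and Ptp99A (2.12), the latter a receptor tyrosine phosphatase gene, one over brat, a translational repressor gene, with 2.38, one partly over Cat, the catalase gene, with 2.39, and one over CG42458 and Rac2, a small GTPase gene, with 2.48. All of these values are wild-type HA fold enrichments. The gap to the nearest wild-type CP190 peak was 1426 bp for the peak at Cat and 176915 bp for the peak between d4 and sxc on 2R.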
